A study of Mus musculus with 24 samples.

Results

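The nuclear genes for the subunits of the mitochondrial respiratory chain and of ATP synthase were followed in RNA of mouse aorta. Members were the genes whose symbols begin with Nduf followed by a subunit letter and a digit, the 4 Sdh genes, the genes that begin with Uqcr, the Cox genes numbered 4 to 8, and the genes that begin with Atp5, without symbols that contain "-ps". The rule gave 87 of the 40141 genes of the deposited table. Of these, 40 carry symbols of complex I, 4 of complex II, 8 of complex III, 18 of complex IV and 17 of complex V. They comprise 83 protein-coding genes and 4 processed pseudogenes (Ndufa11b, Ndufb4c, Ndufs6b and Cox6c2). The symbols leave out Cyc1 and Ndufab1, which encode subunits of complexes III and I. Ndufa4, counted here with complex I by its symbol, encodes a protein of complex IV, and Cox7a2l encodes a factor that joins complexes into supercomplexes.

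In the inner membrane of mitochondria, complexes I and II pass electrons from NADH and succinate to ubiquinone, complex III passes them on to cytochrome c, and complex IV passes them to oxygen. Complexes I, III and IV pump protons, and complex V, the ATP synthase, uses the proton gradient to make ATP. Most subunits come from nuclear genes and the rest from the mitochondrial genome, so that both sets of transcripts are needed for a complete chain. Heart muscle, brown fat and kidney tubules are rich in mitochondria, and several subunits of complex IV have isoforms that are largely restricted to muscle and brown fat.

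The study asked how loss of Cthrc1, a secreted collagen triple helix repeat protein, alters the aorta in a model of dissection. Wild type mice and Cthrc1-/- mice (KO) received PBS or Ang-II/BAPN. The latter joins angiotensin II, a peptide that raises blood pressure, and β-aminopropionitrile, an inhibitor of the enzymes that cross-link elastin and collagen. Each genotype and treatment had 6 libraries, 3 with titles that begin with F and 3 with titles that do not (the F set and the plain set), 24 in all. Levels of Xist RNA separated the sets, with 186 to 933 CPM in F libraries and 0.131 to 13.0 CPM in plain ones, and the Y-linked Ddx3y had 55.6 to 107 CPM in plain libraries. CPM are counts scaled to a common library size. The labels name neither age nor strain, nor the dose or duration of treatment. They do not say whether libraries came from separate animals, and all p-values therefore reflect library-to-library spread alone, possibly technical.

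Total counts ran from 39.0 M to 82.0 M a library, and the members together took 0.453 to 1.74% of them. Cthrc1 itself lay between 1.52 and 2.47 CPM in wild type under PBS, between 26.5 and 112 CPM in treated wild type, between 0.165 and 0.547 CPM in knockout under PBS and between 1.79 and 10.5 CPM in treated knockout, so that within each treatment every knockout library lay below every wild type one. Markers of aortic smooth muscle were abundant in all libraries, with a summed level of 19265 to 27717 CPM in wild type under PBS and 1717 to 6213 CPM in treated wild type. The corresponding ranges in knockout were 16414 to 34925 and 7501 to 14683 CPM. In 5 libraries, 4 of them under PBS, Rn7sk RNA lay between 4.85 and 32.7 CPM, against 0.173 to 1.45 CPM in the other 19. These 5 were libraries 2 and 3 of wild type PBS and library 2 of knockout PBS in the F set, library 2 of knockout PBS in the plain set, and library 1 of treated knockout in the F set. Members with short transcripts were much higher in these 5 libraries, so that treatment calls which are lost or gained without them are named as such. In 4 of the 6 treated wild type libraries, transcripts of intestine were present, with a summed marker level of up to 211 CPM, and transcripts of kidney tubule and brown fat varied over all groups. In bulk tissue, fewer cells of a type and less RNA per cell cannot be told apart.

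The start regions of 3 members are shown, those with the smallest p in the wild type treatment response in complexes I, IV and V. Each runs from 250 bases before to 50 bases after the start of the gene in RefSeq (build GRCm38.p6), 5′ to 3′ on the gene's own strand. Capitals mark matches to 4 motifs of factors known to act on genes for the respiratory chain. The motifs were GCGCATGCG for NRF1, CCGGAAGT for GABP and other ETS factors, TCAAGGTCA for the estrogen-related receptors and AAGATGGC for YY1, each searched on both strands.
Ndufs3, complex I, chr2:90904672-90904971, minus strand: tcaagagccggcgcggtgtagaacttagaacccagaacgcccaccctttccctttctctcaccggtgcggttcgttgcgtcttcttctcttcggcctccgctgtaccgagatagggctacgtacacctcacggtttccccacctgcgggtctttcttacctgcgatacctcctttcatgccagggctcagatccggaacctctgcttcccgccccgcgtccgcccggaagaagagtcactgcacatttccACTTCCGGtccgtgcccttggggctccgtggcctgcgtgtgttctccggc
Cox5a, complex IV, chr9:57520982-57521281, plus strand: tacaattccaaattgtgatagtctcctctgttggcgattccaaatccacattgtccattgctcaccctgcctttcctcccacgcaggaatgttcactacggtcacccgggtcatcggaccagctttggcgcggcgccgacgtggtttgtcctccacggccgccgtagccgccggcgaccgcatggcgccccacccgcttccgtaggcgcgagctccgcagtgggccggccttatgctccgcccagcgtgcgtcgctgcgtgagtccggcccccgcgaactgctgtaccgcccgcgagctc
Atp5k, complex V, chr5:108434350-108434649, minus strand: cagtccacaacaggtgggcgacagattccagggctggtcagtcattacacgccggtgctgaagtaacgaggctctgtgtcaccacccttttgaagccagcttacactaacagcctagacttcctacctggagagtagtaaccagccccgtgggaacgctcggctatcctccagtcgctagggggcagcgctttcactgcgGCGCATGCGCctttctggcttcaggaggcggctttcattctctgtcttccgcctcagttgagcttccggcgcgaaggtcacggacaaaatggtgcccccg
The Ndufs3 region held 1 match to the ETS motif, on the reverse strand at the RefSeq start of the gene. That start lies 106 bases from the start of Ndufs3 in the deposited table. The Atp5k region held 1 stretch that matches the NRF1 motif on both strands with overlapping letters, and the Cox5a region held no match to any of the 4.

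RefSeq start regions of 300 bases were found for 68 of the 87 members. The NRF1 motif was in 8 of these 68 (11.8%), against 1.95% of all 27025 genes with such a region. The YY1 motif was in 10 (14.7%, against 3.19%), the ETS motif in 5 (7.35%, against 4.31%) and the estrogen-related receptor motif in 2 (2.94%, against 0.466%). Of the 10 members with the YY1 motif, 7 belonged to complex I and 3 to complex V. At least 1 of the 4 motifs was in 24 members, 35.3% of the 68, against 9.39% of all genes. A match describes letters in a window of sequence and is not a measured binding site.

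Levels within the chain differed widely between subunits when set against length. In mean FPKM over the 24 libraries, a level per length of exon, Cox8a (376) was the highest of complex IV and of all members, and Cox6a1 stood at 359. Atp5b, the catalytic β subunit of the synthase, was the highest of complex V at 174. The highest of the other complexes were Uqcr10 of complex III (108), Sdhd of complex II (86.9) and Ndufb9 of complex I (77.2). This order rests in part on the 5 libraries with high Rn7sk. Over the other 19, Cox6a1 was the highest of all members (200.2), followed by Atp5b (176) and Cox8a (172), and Uqcrh (80.1) was the highest of complex III. At the low end over all libraries were Sdhc (38.5), Uqcrc1 (42.9), Atp5g1 (6.24), the testis-type Cox7b2 (0.0771) and the pseudogene Ndufa11b (0.00935). FPKM of genes with long annotated exons, such as Atp5g1, are understated, because the deposited values divide by the length of all exons of a gene. Between the highest and the lowest of the 24 libraries, single members differed 1.98-fold to 94.2-fold (median 5.70-fold over 84 members that were above 0 in every library).

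Transcripts of all 5 complexes were lower after Ang-II/BAPN in wild type aorta. Of 86 members tested, 64 passed the threshold as lower and 0 as higher (edgeR quasi-likelihood test, adjusted p below 0.05 over 24623 genes). Of all tested genes 11.5% were lower and 13.3% higher. The median log2 fold change was -0.99 over the members and 0.01 over all tested genes. By complex, 31 of 39 tested members of complex I, 3 of 4 of complex II, 7 of 8 of complex III, 13 of 18 of complex IV and 10 of 17 of complex V were lower. The medians were -1.01, -0.66, -1.10, -1.34 and -0.72. The summed level of all members had a lowest, median and highest value of 7617, 9797 and 19727 CPM under PBS and of 4145, 6535 and 8661 CPM after treatment. The 2 groups overlapped in this sum. With the level of brown adipocyte markers as an added term, 0 members were lower (4.74% of all genes). Without the 4 treated libraries with intestinal transcripts 1 was lower (6.13% of all genes), and without the 5 libraries with high Rn7sk 34 were (7.29% of all genes), with a median of -0.59. The fit without the 4 libraries took title set as an added term in place of the 8 group means. It kept 2 treated wild type libraries, both of the F set. For 22 of the 86 members, every treated library lay below every PBS library, which held for 5.14% of all tested genes.

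**Figure D1:**
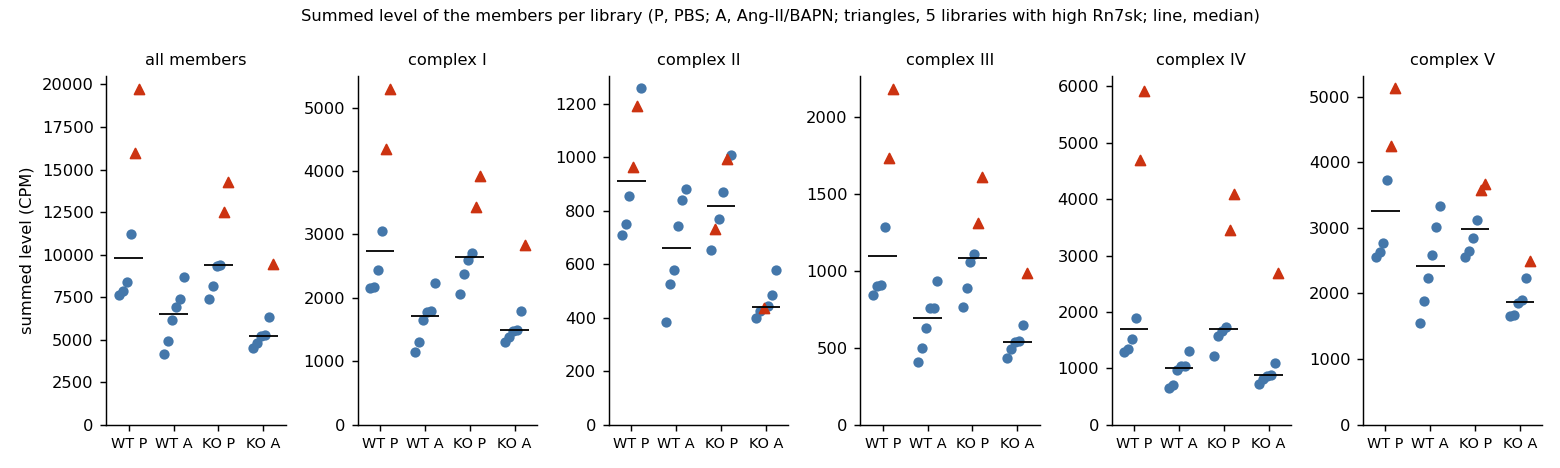
Summed level of the members (CPM, linear axis from 0) in each of the 24 libraries, over all members and by complex, in the 4 groups of 6, with the median as a line and the 5 libraries with high Rn7sk as triangles. In complex IV the triangles lie at 2684 to 5926 CPM and the other 19 libraries at 657 to 1889.8 CPM, and in complex II the 2 kinds overlap.

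In knockout aorta, 33 of 86 members were lower after Ang-II/BAPN and 0 higher (edgeR), where 4.4% of all tested genes were lower and 7.03% higher. The median log2 fold change was -0.79 over the members and -0.03 over all genes. Called lower were 19 of 39 members of complex I, all 4 of complex II, 2 of 8 of complex III, 4 of 18 of complex IV and 4 of 17 of complex V, with medians of -0.77, -0.85, -0.95, -0.92 and -0.62. The summed level of all members was 7379, 9362 and 14277 CPM under PBS and 4521, 5245 and 9441 CPM after treatment (lowest, median and highest). The highest treated value was that of library 1 of the F set, the treated library with high Rn7sk. Without that library 72 members were lower (5.82% of all genes), and without library 2 of the treated plain set 13 (1.67% of all genes). With marker levels as added terms the count was 7 for brown adipocytes (3.29% of all genes), 1 for kidney tubule (0.967%) and 0 for kidney tubule, intestine and brown adipocytes together (0.00812%). For 15 members every treated library lay below every PBS library, against 2.21% of all tested genes. Of the members called lower, 24 were shared, which is 37.5% of the 64 in wild type and 72.7% of the 33 in knockout. The same overlap over all tested genes was not counted, so these shares cannot be weighed against it. By complex, 15 of the shared members belonged to complex I, 3 to complex II, 2 to complex III and 4 to complex IV, and 0 to complex V. None of the 86 members passed the test of the difference between the 2 responses (interaction, edgeR), nor did any other gene (0% of 24623). At an unadjusted p below 0.05 the interaction had 1 member, Atp5pb, a count given without the share of all genes at that threshold. DESeq2 and limma called 0 members, and 2.4% and 0.329% of all genes.

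**Figure D2:**
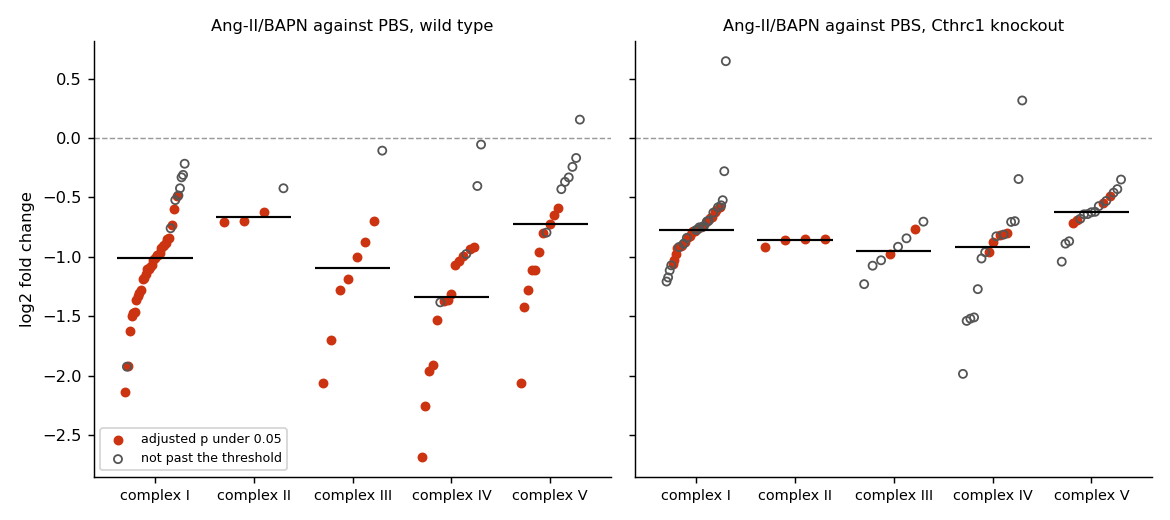
Log2 fold change of each tested member after Ang-II/BAPN against PBS, by complex, in wild type (left) and knockout (right), without Cox7b2, which is near 0 CPM. Filled points passed an adjusted p of 0.05 and lines are medians. Nearly all points lie below 0, with medians from -0.66 to -1.34 in wild type and from -0.62 to -0.95 in knockout.

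In complex I, Ndufs3, a core subunit of the arm that takes electrons from NADH (chr2:90894634-90904827, minus strand, exons overlapping Kbtbd4 on the other strand), had the smallest p of the complex in the wild type response. It had a lowest, median and highest level of 71.2, 97.4 and 132 CPM under PBS and 38.7, 50.7 and 71.5 CPM after treatment in wild type, and of 72.8, 83.5 and 96.7 CPM and 38.9, 45.8 and 62.2 CPM in knockout. The treated libraries lay below nearly all PBS libraries in wild type and below all of them in knockout. Ndufs3 was lower in wild type (log2 fold change -0.92, SE 0.18, adjusted p = 0.000933) and in knockout (log2 fold change -0.79, SE 0.18, adjusted p = 0.00698). The accessory subunit Ndufb9 had 82.3, 113 and 197 CPM under PBS and 42.0, 58.8 and 74.6 CPM after treatment in wild type, with no overlap (log2 fold change -1.14, SE 0.23, adjusted p = 0.0014). In knockout Ndufb9 was lower too (log2 fold change -0.97, SE 0.23, adjusted p = 0.00944). Ndufb10, another accessory subunit, fell in wild type from 110.5 to 57.6 CPM in the median (log2 fold change -1.31, SE 0.27, adjusted p = 0.00153). In knockout Ndufb10 did not pass the threshold (log2 fold change -0.77, SE 0.27, adjusted p = 0.0698), and its treated library with high Rn7sk stood at 152 CPM. It passed there without the 5 libraries, at -0.82 (adjusted p = 0.00753).

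Ndufa10, an accessory subunit of the membrane arm (chr1:92439010-92473860), had the smallest p of the complex in the knockout response. Its levels were 95.4, 109.9 and 151 CPM under PBS and 52.4, 61.6 and 81.7 CPM after treatment in knockout, so that the groups did not overlap. The change passed in knockout (log2 fold change -0.91, SE 0.20, adjusted p = 0.00489) and not in wild type (log2 fold change -0.52, SE 0.20, adjusted p = 0.0605). Ndufv2, a core iron-sulfur subunit, was lower in both, with log2 fold changes of -0.79 in knockout (adjusted p = 0.00538) and -0.49 in wild type (adjusted p = 0.046). Ndufv1, the flavin-bearing core subunit, had -0.99 in wild type and -0.83 in knockout (adjusted p = 0.00344 and 0.0206). The wild type changes of Ndufv1 and Ndufv2 did not pass without the 5 libraries with high Rn7sk, at -0.64 (adjusted p = 0.0757) and -0.33 (adjusted p = 0.271). Of the 39 tested members with complex I symbols, those called in neither genotype were Ndufc2, Ndufa4l2 and the pseudogenes Ndufb4c and Ndufs6b.

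Complex II is made of 4 subunits, all nuclear. Sdhc, one of its membrane anchors (chr1:171127165-171150603), was lower in wild type (log2 fold change -0.70, SE 0.20, adjusted p = 0.0127) and in knockout (log2 fold change -0.85, SE 0.20, adjusted p = 0.00715). In knockout its levels were 141, 183 and 239 CPM under PBS and 85.1, 99.0 and 122 CPM after treatment, with no overlap. The iron-sulfur subunit Sdhb fell by 0.71 (wild type) and 0.92 (knockout) on the log2 scale, with adjusted p = 0.0233 and 0.00921. Sdhd, the other anchor, fell by 0.62 and 0.85 (adjusted p = 0.037 and 0.0118). Sdha, the flavoprotein that oxidises succinate, passed in knockout (log2 fold change -0.86, SE 0.21, adjusted p = 0.0123) but not in wild type (log2 fold change -0.42, SE 0.21, adjusted p = 0.156). No subunit of complex II passed in wild type without the 5 libraries with high Rn7sk. Sdhc was then at -0.50 (adjusted p = 0.146), Sdhb at -0.43 (adjusted p = 0.268) and Sdhd at -0.43 (adjusted p = 0.283), and Sdhd did not pass in knockout, at -0.82 (adjusted p = 0.0584).

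In complex III, Uqcrh, the hinge subunit near cytochrome c1 (chr4:116066965-116075034), had 109, 142 and 243 CPM under PBS and 54.2, 78.9 and 106 CPM after treatment in wild type, where every treated library lay below every PBS library. It was lower in wild type (log2 fold change -1.01, SE 0.20, adjusted p = 0.000942) and in knockout (log2 fold change -0.77, SE 0.20, adjusted p = 0.0147). The Rieske iron-sulfur protein Uqcrfs1 had the smallest p of the whole complex in knockout, with 111, 133 and 178 CPM under PBS and 54.8, 67.0 and 96.3 CPM after treatment. Its change was -0.98 in knockout (SE 0.19, adjusted p = 0.00161) and -0.70 in wild type (SE 0.19, adjusted p = 0.00952). The small subunits Uqcr11 and Uqcr10 had the changes of largest size in this complex in wild type, -2.06 and -1.70 (adjusted p = 0.00541 and 0.0077). Both are among the members that stood far higher in the 5 libraries with high Rn7sk: Uqcr11 at 124 to 218 CPM there and at 10.5 to 54.6 CPM in the other 19. Without the 5 libraries the wild type changes were -1.15 (adjusted p = 0.00929) for Uqcr11 and -0.87 (adjusted p = 0.0142) for Uqcr10, and both passed in knockout, at -1.12 (adjusted p = 0.0172) and -1.03 (adjusted p = 0.00762). Uqcrb, whose exons overlap Gm10767, had -1.19 in wild type (adjusted p = 0.0338) and -1.23 in knockout (adjusted p = 0.0507). Uqcrc1, a core protein of the matrix side, had -0.88 and -0.84 (adjusted p = 0.0243 and 0.0512), and the other core protein, Uqcrc2, had -0.11 and -0.70 (adjusted p = 0.802 and 0.0568). The wild type changes of Uqcrfs1, Uqcrb and Uqcrc1 did not pass without the 5 libraries, at -0.57 (adjusted p = 0.0931), -0.55 (adjusted p = 0.0995) and -0.43 (adjusted p = 0.266).

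In complex IV, Cox5a, a subunit of the matrix side (chr9:57521274-57532426, overlapping Gm26631), had the smallest p of the complex in both responses. Its levels were 73.8, 103 and 154 CPM under PBS and 33.8, 56.6 and 73.5 CPM after treatment in wild type, and 68.0, 92.1 and 108 CPM and 37.3, 47.4 and 62.8 CPM in knockout. In each genotype every treated library lay below every PBS library. The changes were -0.93 (SE 0.20, adjusted p = 0.00231) and -0.96 (SE 0.20, adjusted p = 0.00386) in edgeR. The wild type change did not pass without the 5 libraries with high Rn7sk, at -0.68 (adjusted p = 0.0703). Cox4i1, the common form of subunit 4 (chr8:120668222-120674207, overlapping Emc8), fell from a median of 402 to 222 CPM in wild type (log2 fold change -1.04, SE 0.23, adjusted p = 0.0028). In knockout Cox4i1 fell from 375 to 205 CPM (log2 fold change -0.80, SE 0.23, adjusted p = 0.0298). Cox4i2, the form known from lung and from low oxygen, was far less abundant, at 2.38 to 7.54 CPM under PBS and 0.803 to 2.04 CPM after treatment in wild type, with no overlap (log2 fold change -1.37, SE 0.32, adjusted p = 0.0038). In knockout Cox4i2 did not pass (log2 fold change -0.70, SE 0.31, adjusted p = 0.172).

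Cox7a1 and Cox8b, the isoforms of subunits 7a and 8 that are known from heart, skeletal muscle and brown fat, had the wild type fold changes of largest size in complex IV apart from the nearly undetected Cox7b2. Cox7a1 had 12.9, 21.8 and 98.6 CPM under PBS and 1.74, 5.16 and 9.41 CPM after treatment in wild type (log2 fold change -2.69, SE 0.74, adjusted p = 0.0121). Cox8b had 26.0, 55.2 and 152 CPM and 2.66, 13.7 and 26.5 CPM (log2 fold change -2.26, SE 0.66, adjusted p = 0.0172). In wild type no treated library reached the PBS range of Cox7a1, and those of Cox8b overlapped it narrowly. Without the 5 libraries with high Rn7sk the wild type changes were -1.57 (adjusted p = 0.0359) for Cox7a1 and -1.27 (adjusted p = 0.126) for Cox8b, which then did not pass. In knockout Cox7a1 (log2 fold change -1.99, SE 0.72, adjusted p = 0.0846) and Cox8b (log2 fold change -1.51, SE 0.65, adjusted p = 0.149) did not pass with all libraries. Both did without the 5 libraries, at -2.40 (adjusted p = 0.00672) and -2.10 (adjusted p = 0.0274). Cox6a2, the muscle form of subunit 6a whose exons overlap Itgad, lay between 0 and 4.41 CPM in all groups and did not pass in either genotype.

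Of the forms that most tissues use, Cox6a1, Cox8a and Cox7b were called lower in wild type only, and Cox7a2 and Cox6b1 in both genotypes. Cox6a1 had 163, 236 and 1441 CPM under PBS and 68.5, 121 and 158 CPM after treatment in wild type, and the PBS maximum was 1 of the libraries with high Rn7sk (log2 fold change -1.91, SE 0.56, adjusted p = 0.0174). Cox8a had 119, 157 and 1416 CPM and 56.4, 95.8 and 117 CPM (log2 fold change -1.96, SE 0.65, adjusted p = 0.032). For both genes every treated wild type library lay below the PBS range. Cox8a stood at 575 to 1416 CPM in the 5 libraries with high Rn7sk and at 56.4 to 176 CPM in the other 19. In knockout Cox6a1 (log2 fold change -1.27, SE 0.55, adjusted p = 0.154) and Cox8a (log2 fold change -1.52, SE 0.64, adjusted p = 0.14) did not pass. The changes of Cox6a1 without the 5 libraries were -0.79 (adjusted p = 0.0359) in wild type and -0.96 (adjusted p = 0.0194) in knockout, and those of Cox8a -0.60 (adjusted p = 0.0703) and -0.89 (adjusted p = 0.0156). Cox7a2 fell by 1.07 in wild type and 0.88 in knockout on the log2 scale (adjusted p = 0.0042 and 0.0285), and Cox6b1 by 0.92 and 0.82 (adjusted p = 0.00843 and 0.0315). Cox7b had -0.99 in wild type (adjusted p = 0.021) and -0.71 in knockout (adjusted p = 0.146). The supercomplex factor Cox7a2l had smaller values that did not pass, -0.40 and -0.34 (adjusted p = 0.0626 and 0.171). The testis form Cox6b2 had -0.98 and 0.32 (adjusted p = 0.143 and 0.771), Cox7b2 stayed at or below 0.751 CPM in every library, and Cox8c was not analysed here. Ndufa4, the complex IV protein with a complex I symbol, was lower in wild type (log2 fold change -0.91, SE 0.21, adjusted p = 0.00387) and in knockout (log2 fold change -0.78, SE 0.21, adjusted p = 0.0209). The changes of Cox7a2, Cox6b1, Cox7b and Ndufa4 in wild type did not pass without the 5 libraries, at -0.72 (adjusted p = 0.0665), -0.55 (adjusted p = 0.144), -0.48 (adjusted p = 0.214) and -0.66 (adjusted p = 0.0677), nor did that of Cox7a2 in knockout, at -0.79 (adjusted p = 0.061).

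**Figure D3:**
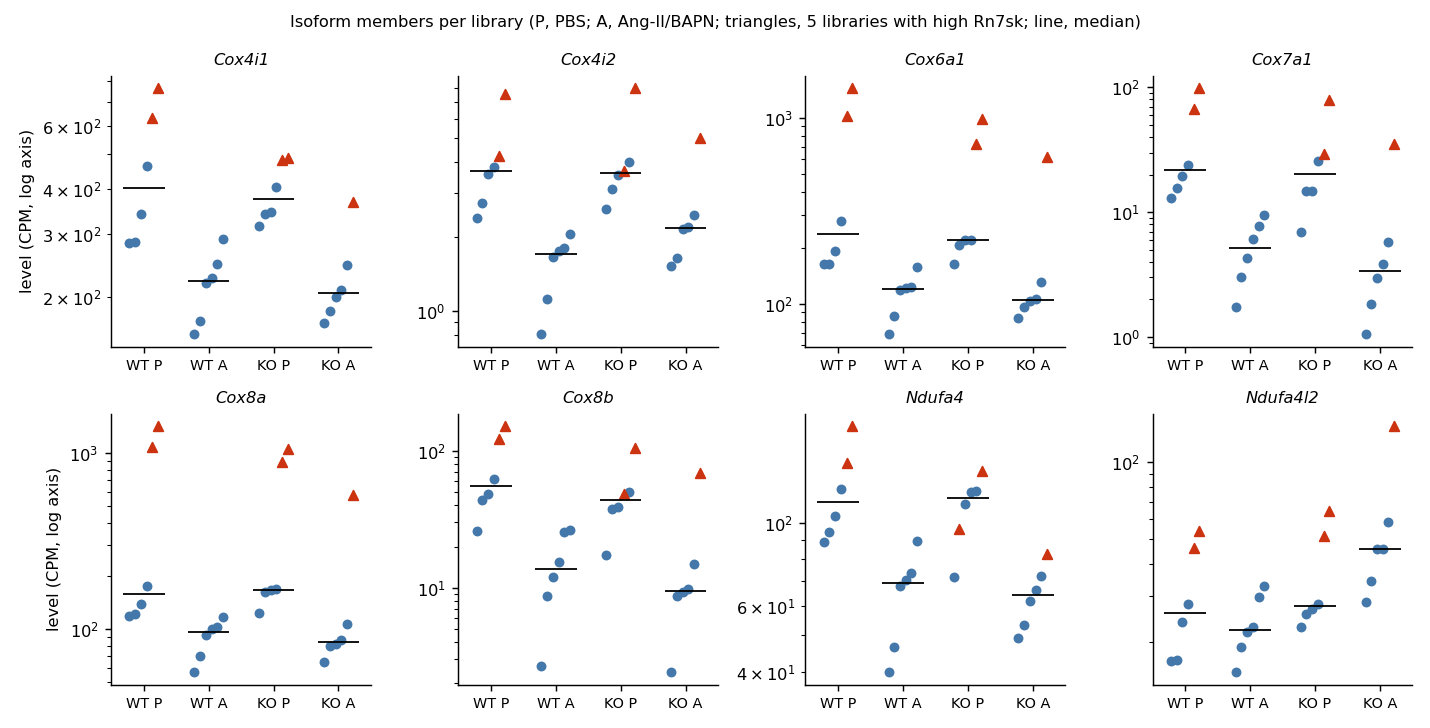
Levels of 8 members in each of the 24 libraries (CPM, log axis), in the 4 groups of 6, with the median as a line and the 5 libraries with high Rn7sk as triangles. Cox6a1 and Cox8a show the triangles far above the other points (617 to 1441 CPM against 68.5 to 279.9 CPM for Cox6a1), and Ndufa4l2 is the one of the 8 with its highest median in treated knockout.

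In complex V, the smallest p-values belonged to small subunits in the wild type response and to subunits of the catalytic head and rotor in the knockout response. Atp5k, the e subunit of the membrane part (chr5:108433244-108434448), had 21.3, 28.8 and 115 CPM under PBS and 5.79, 10.9 and 15.3 CPM after treatment in wild type (log2 fold change -2.06, SE 0.53, adjusted p = 0.00728). It stood at 63.3 to 115 CPM in the 5 libraries with high Rn7sk and at 5.79 to 34.9 CPM in the other 19. Atp5j, the coupling factor 6, whose exons overlap Gabpa, had -0.65 (adjusted p = 0.00823), and Atp5e, the ε subunit, had -1.42 (adjusted p = 0.00946). None of these 3 passed in knockout, where they had -0.89, -0.35 and -0.64 (adjusted p = 0.309, 0.208 and 0.317). Atp5a1, the α subunit of the head (overlapping Haus1), had 516, 630.2 and 686 CPM under PBS and 348, 365 and 460.2 CPM after treatment in knockout, with no overlap (log2 fold change -0.71, SE 0.18, adjusted p = 0.0139). The β subunit Atp5b and the γ subunit Atp5c1 were lower in knockout as well (-0.69 and -0.49, adjusted p = 0.0437 and 0.0434). In wild type the α, β and γ subunits did not pass (-0.37, -0.33 and -0.24, adjusted p = 0.146, 0.282 and 0.263). Of the 3 genes for the same c subunit of the rotor, Atp5g2 was lower in wild type (-0.59, adjusted p = 0.0499), Atp5g3 in knockout (-0.55, adjusted p = 0.0378) and Atp5g1 in neither (adjusted p = 0.722 and 0.347). Without the 5 libraries the wild type changes were -1.11 (adjusted p = 0.015) for Atp5k and -0.78 (adjusted p = 0.0307) for Atp5e, and those of Atp5j and Atp5g2 did not pass, at -0.40 (adjusted p = 0.113) and -0.28 (adjusted p = 0.318). In knockout Atp5a1, Atp5b, Atp5c1 and Atp5g3 did not pass without them (adjusted p = 0.0679, 0.171, 0.155 and 0.109).

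The 5 libraries with high Rn7sk changed the count in wild type and the membership in knockout. Without them, 34 of 85 tested members were lower in wild type. All 34 had also been lower with every library. In knockout 37 were lower without them, where 2.6% of all genes were, with a median of -0.73, and 20 of these had been lower with every library. Leaving out these libraries leaves 1 wild type PBS library in the F set. Of the 86 members, 82 were higher on average in the 5 libraries than in the other 19, by a median of 1.21 on the log2 scale and with a range from -0.43 (Uqcrc2) to 3.71 (Ndufs6b). This difference of plain means was not adjusted for genotype or treatment. As 4 of the 5 are PBS libraries, it also holds part of the difference between PBS and treatment. The difference was larger for members with shorter transcripts (Spearman's rho -0.666 across 86 members, which share the same libraries and are not independent). Members with a principal transcript under 750 bases had a median treatment response of -1.31 in wild type, and those at or over it -0.79. Without the 5 libraries these medians were -0.72 and -0.46. Protein-coding genes under 750 bases had a median of -0.02 over 663 tested genes with all libraries. These short genes, too, were higher on average in the 5 libraries. Their median log2 deviation from each gene's mean was 0.305 to 0.540 there and -0.547 to 0.366 in the other 19. Protein-coding genes at or over 750 bases had -0.222 to -0.0236 and -0.0288 to 0.0887.

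**Figure D4:**
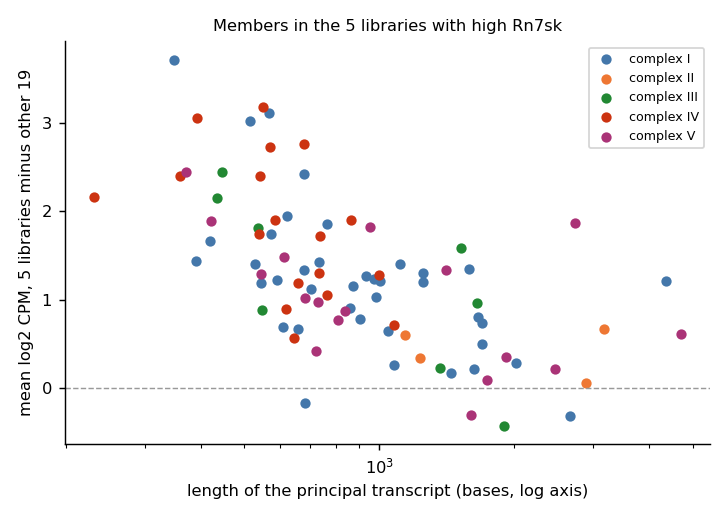
Mean log2 CPM of each tested member in the 5 libraries with high Rn7sk minus that in the other 19, against the length of its principal transcript (bases, log axis), coloured by complex. Means are not adjusted for genotype or treatment, and 4 of the 5 are PBS libraries. The differences fall with length, from 3.18 for Cox8a and 3.71 for Ndufs6b to 0.05 for Sdha. They lie below 0 for Uqcrc2, Atp5pb, Ndufs1 and Ndufc2.

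**Figure D5:**
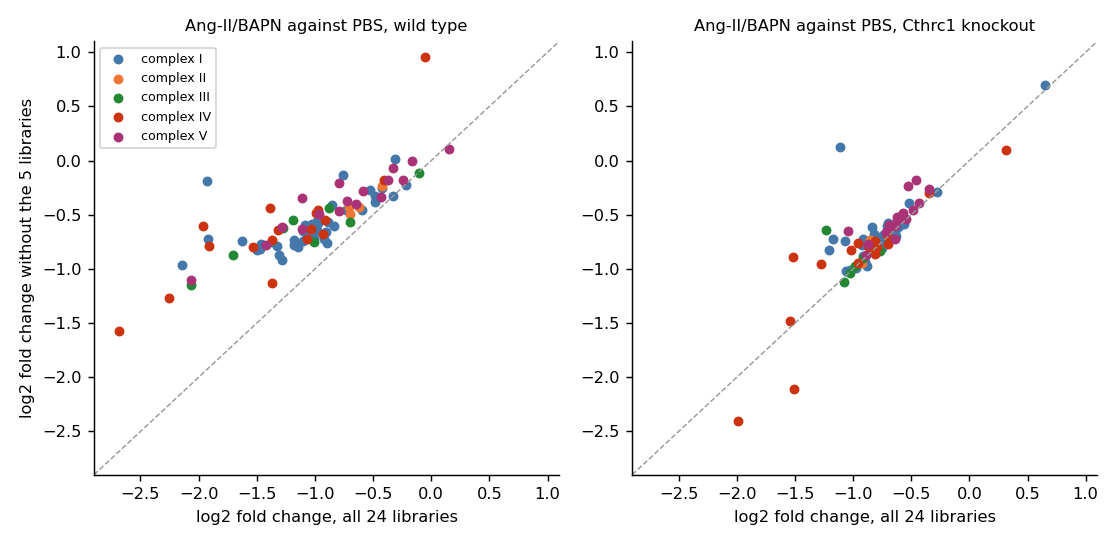
Log2 fold change of each tested member after Ang-II/BAPN, with all 24 libraries (x axis) and without the 5 libraries with high Rn7sk (y axis), in wild type (left) and knockout (right), with the line of equal values dashed and Cox7b2 not shown. In wild type most points lie above the line (medians -0.99 and -0.59), and in knockout most lie near it (-0.79 and -0.73).

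The 2 title sets gave different counts, and the difference between them was tested. In wild type, 58 members were lower in the F set (6.08% of all genes), with a median of -1.40, and 0 in the plain set (3.89% of all genes), with a median of -0.65. In knockout, 6 were lower in the F set (2.12% of all genes, median -0.69) and 0 in the plain set (0.0772% of all genes, median -0.87). At an unadjusted p below 0.05, the plain set had 14 members in wild type and 56 in knockout. The share of all genes at that unadjusted p is not given here, so these counts cannot be weighed against it. No member passed the test of a difference between sets in wild type or in knockout (edgeR, 0% of all genes in each). At an unadjusted p below 0.05 that test had 4 members and 0 members, also given without that share. DESeq2 and limma called 0 members in either genotype, where they called 0.439% and 0.122% of all genes in wild type and 0.313% and 0% in knockout. Of the 3 wild type PBS libraries of the F set, 2 are libraries with high Rn7sk, and 0 of the plain set are.

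Markers of other organs differed between libraries and groups, and not in the same direction. Of all tested genes, 11.5% were lower and 13.3% higher in treated wild type, and 4.4% were lower and 7.03% higher in treated knockout. In wild type the summed brown adipocyte level was lower in the median after treatment, as the members were, and the intestinal level was higher. The brown adipocyte list had a summed level of 635 to 2269.9 CPM under PBS and 138 to 777 CPM after treatment in wild type, and of 568 to 1950.2 and 318 to 684 CPM in knockout. Ucp1, the uncoupling protein that defines brown fat, had 177 to 1129 CPM under PBS and 6.69 to 452 CPM after treatment in wild type, and 92.9 to 685 CPM and 3.74 to 119 CPM in knockout. Of the 8 markers 2 were lower in wild type, and 3 were lower and 1 higher in knockout, and 0 of the 8 were at 0 in any library. With the level of this list as an added term, 0 members were lower in wild type (4.74% of all genes, median of the members -0.20) and 7 in knockout (3.29% of all genes, median -0.35). The kidney tubule list had 80.0 to 632 CPM under PBS and 14.4 to 3191 CPM after treatment in wild type, and 102 to 2465 and 4.80 to 635 CPM in knockout. Of its 7 markers 0 were called in wild type and 2 were lower in knockout, and Slc12a1 had a lowest value of 0 in treated knockout. With its level as an added term, 56 members were lower in wild type (10.2% of all genes) and 1 in knockout (0.967% of all genes). Without the 4 treated wild type libraries with intestinal transcripts, 1 member was lower in wild type (6.13% of all genes). That fit took title set as an added term and had 2 treated wild type libraries left, both of the F set. All 5 intestinal markers were higher in treated wild type and 0 of 5 passed in knockout, and each was at 0 in at least 1 library. Of the 8 cardiac markers 1 was lower in each genotype, with lowest values of 0 for Myl7 and Nppa and summed levels of 47.9 to 83.1, 7.86 to 57.2, 56.3 to 107 and 32.5 to 56.0 CPM in wild type PBS, treated wild type, knockout PBS and treated knockout. All 6 smooth muscle markers were lower in treated wild type and 3 in treated knockout, and all 6 macrophage markers were higher in both. Beyond these fits, the part of cells of other organs in the members' response was not tested.

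Between genotypes under PBS, 0 of 86 members differed (edgeR, 0% of 24623 genes), 0 had an unadjusted p below 0.05, and DESeq2 and limma called 0 members (0.361% and 0% of all genes). The members with the smallest p were Atp5g1 (log2 difference, knockout minus wild type, 0.49, SE 0.28) and Ndufv1 (-0.37, SE 0.22). After Ang-II/BAPN, 2 members were lower in knockout than in wild type and 1 higher, where 1.87% of all tested genes were lower and 4.26% higher. Ndufa4l2, a paralog of Ndufa4 known as a target of the hypoxia response (chr10:127514967-127517053, overlapping Shmt2), had 15.2, 22.3 and 33.0 CPM in treated wild type and 28.6, 45.8 and 138 CPM in treated knockout. The groups overlapped in the range from 28.6 to 33.0 CPM, and the highest value was that of the library with high Rn7sk. Ndufa4l2 was higher in treated knockout (log2 fold change 1.30, SE 0.33, adjusted p = 0.0278), also without the 5 libraries (0.83, adjusted p = 0.0264, where 2.24% of all genes were higher). Its treatment response was -0.31 in wild type (adjusted p = 0.54) and 0.65 in knockout (adjusted p = 0.24). Without the 5 libraries its knockout treatment response passed as higher. The interaction did not pass (log2 fold change 0.96, SE 0.47, adjusted p = 0.404).

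Sdha had 204, 368 and 525 CPM in treated wild type and 159, 210.2 and 287 CPM in treated knockout, with overlap, and was lower in knockout (log2 fold change -0.76, SE 0.21, adjusted p = 0.0402). Uqcrc2, whose exons overlap Pdzd9, had 99.3, 159 and 242 CPM and 52.4, 97.6 and 125 CPM (log2 fold change -0.81, SE 0.23, adjusted p = 0.045). Neither passed without the 5 libraries (adjusted p = 0.0877 and 0.104). Without library 1 of treated knockout in the F set alone, none of the 3 passed and 0 members were called. The count was also 0 without the 4 treated wild type libraries with intestinal transcripts, with organ covariates, with a replicate block and with only the libraries compared. In these fits Ndufa4l2 had adjusted p = 0.262, 0.258, 0.0649 and 0.0956. Atp5pb, the b subunit of the stator and the member with the smallest p of the interaction, had a difference of -0.59 between the responses (SE 0.26, adjusted p = 0.351).

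Genes that work with the chain were read from 5 lists. Of all tested genes, 11.5% were lower and 13.3% higher in wild type, and 4.4% were lower and 7.03% higher in knockout. Of the 16 genes of the tricarboxylic acid cycle and pyruvate dehydrogenase, which supply the chain with NADH and succinate, 7 were lower in wild type (median -0.54) and 12 in knockout (median -0.81), and 0 were higher in either. Ogdh, of the oxoglutarate dehydrogenase complex, had log2 fold change -0.74, SE 0.20, adjusted p = 0.00918. Of the 46 assembly factors 13 were lower in wild type (median -0.33) and 5 in knockout (median -0.33), and 0 higher. Cox17, a copper chaperone for complex IV, fell from a median of 28.9 to 16.2 CPM (log2 fold change -1.07, SE 0.19, adjusted p = 0.000321), and Surf1, an assembly factor of the same complex, from 34.9 to 22.2 CPM (log2 fold change -0.64, SE 0.12, adjusted p = 0.000442).

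Of 18 electron carriers, nucleotide carriers and related genes, 7 were lower in wild type and 5 in knockout, against 11.5% and 4.4% of all tested genes. Etfb, which delivers electrons from fatty acid oxidation, had log2 fold change -1.26, SE 0.27, adjusted p = 0.00206, and Higd1a, a small protein of the inner membrane, had log2 fold change -0.90, SE 0.18, adjusted p = 0.00131. The 13 subunits of the mitochondrial genome had a median of -1.15 in wild type, where 9 were lower, and of -0.47 in knockout, where 0 were (edgeR). mt-Co3 had 11168, 12516 and 22042 CPM under PBS and 5460.2, 5853 and 7944 CPM after treatment in wild type, with no overlap (log2 fold change -1.15, SE 0.25, adjusted p = 0.00199), and mt-Nd3 had log2 fold change -1.73, SE 0.41, adjusted p = 0.00415. The summed level of the 13 reached 166663 to 409353 CPM in the 5 libraries with high Rn7sk and 83991 to 244803 CPM in the other 19.

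Most regulators of mitochondrial biogenesis did not pass. Of 18, 2 were lower and 1 higher in wild type (median 0.06), where 11.5% of all tested genes were lower and 13.3% higher. In knockout 3 were lower (median -0.18), against 4.4% of all tested genes. Esrra, an estrogen-related receptor that binds genes of oxidative metabolism, had 32.02, 51.3 and 74.6 CPM under PBS and 16.3, 24.7 and 35.8 CPM after treatment in wild type (log2 fold change -1.03, SE 0.21, adjusted p = 0.00113), and was lower in knockout (log2 fold change -0.63, SE 0.20, adjusted p = 0.0496). The coactivator Ppargc1b had 6.28, 11.6 and 17.7 CPM and 1.70, 3.57 and 8.71 CPM in wild type (log2 fold change -1.65, SE 0.39, adjusted p = 0.00437), and was lower in knockout (log2 fold change -1.34, SE 0.39, adjusted p = 0.0298). The treated wild type libraries overlapped the PBS range for both genes in part. Nrf1 (-0.04 and 0.02, adjusted p = 0.864 and 0.954) and Tfam (0.23 and -0.02, adjusted p = 0.377 and 0.974), named after their values were seen, did not pass in either genotype.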

How the data were processed

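Gene expression was measured by RNA-seq in 24 libraries of mouse aorta, 6 for each genotype and treatment. Per the labels' protocols, total RNA libraries were made with a stranded kit and sequenced as Illumina paired ends. The submitters' processing notes name HISAT2, StringTie, DESeq2 and GRCm38, without versions. No source used here gives the counting tool or its strand setting, and exons of 27 members overlap a gene on the other strand. The deposited table holds, per the file headers, read counts per gene and FPKM made by the authors. FPKM divide by the length of all exons of a gene and were used only to compare levels between members. The table has 4 further columns of 2 libraries without labels here, which were not used.

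Counts were fitted with edgeR 4.0.16 (quasi-likelihood, robust) in R 4.3.3, with trimmed-mean (TMM) scaling, 8 group means (genotype, treatment and title set) and the default expression filter (minimum count 10, minimum total 15). Contrasts were averaged over title sets, and p-values were adjusted by the Benjamini-Hochberg method over 24623 genes with a threshold of 0.05. Of the 87 members 86 passed the filter, and Ndufa11b did not. limma 3.58.1 and DESeq2 1.42.0 were alternatives, and the fit was tested on simulated data. The common biological coefficient of variation was 57%, and no replicates agreed within sampling noise (lowest chi-square per degree of freedom 52.5). Libraries that share a replicate number were not treated as pairs in the main fit, and the labels do not explain the numbers. Transcript lengths came from the reference annotation and start regions from RefSeq. Named members were those with the smallest p in each complex and treatment response, the paralogous isoforms and members called between genotypes. Start regions on chromosome 18 were not shown. One gene that the rule named in an accompanying list is not reported here. The members, gene lists and marker lists were chosen with earlier results of these data known. The class of 5 libraries with Rn7sk above 3 CPM, and the fits with marker levels as covariates, were added after seeing the data. So was the fit without the 4 libraries with intestinal transcripts, which took title set as an added term in place of the 8 group means.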

Additional observations from a re-analysis of the deposited data

Results flagged for a closer look

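In groups of 6 libraries, the highest or lowest value of 43 named members and 6 sums was compared with its nearest neighbour, and 30 of 196 groups had a value that stood apart by Dixon's test of the gap against the range. The nominal rate is about 1 in 20, for independent and normally distributed values. The members and sums share the same libraries and are not independent, so that the count cannot be weighed against that rate. Of the 30, 26 were the highest value of a library with high Rn7sk, and whether this class accounts for them was not tested.

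Library 1 of treated knockout in the F set held 20 of them. Its summed level was 9441 CPM over all members (next highest library 6337 CPM), 2833 CPM over complex I (1789 CPM) and 2684 CPM over complex IV (1089 CPM). In complexes I and III it stood apart at 151.6 CPM for Ndufb10, 137.5 CPM for Ndufa4l2, 124.3 CPM for Uqcr11, 142.6 CPM for Uqcr10, 98.76 CPM for Uqcrb and 211.2 CPM for Uqcrc1. In complex IV it held 617.1 CPM of Cox6a1, 574.8 CPM of Cox8a, 123.4 CPM of Cox7a2l, 121.4 CPM of Cox7b, 69.41 CPM of Cox8b, 35.23 CPM of Cox7a1, 21.98 CPM of Cox6b2, 5.004 CPM of Cox4i2 and 2.786 CPM of Cox6a2. In complex V it held 69.2 CPM of Atp5k and 117.4 CPM of Atp5e.

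Library 2 of knockout PBS in the plain set stood apart with 78.61 CPM of Cox7a1, 104.7 CPM of Cox8b, 7.986 CPM of Cox4i2 and 0.3367 CPM of Cox7b2. Library 2 of wild type PBS in the F set did so with 7.543 CPM of Cox4i2 and 0.7505 CPM of Cox7b2. The other 4 values belonged to libraries without high Rn7sk. They were 0.1575 CPM of Cox7b2 and 460.2 CPM of Atp5a1 in libraries 3 and 1 of treated knockout in the plain set, 4.413 CPM of Cox6a2 in library 1 of treated wild type in the plain set, and 100 CPM of Atp5g2 in library 1 of treated wild type in the F set.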

How the results depend on the processing

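The lower members numbered 61 in wild type and 32 in knockout with DESeq2-type size factors in edgeR (2710 and 1112 of 24623 genes lower). They were 67 and 41 with DESeq2 (3384 and 1851 of 24623) and 46 and 39 with limma (1495 and 802 of 24623). Without the expression filter they were 55 and 26 (1893 and 673 of 39750). A replicate block gave 57 in wild type (2288 of 24623 genes lower) and 17 in knockout (551 of 24623). Between genotypes after treatment it gave 0 (543 of 24623 called). Only 7 of 36 same-numbered pairs correlated above 0.1 (-0.424 to 0.422), and 4 libraries correlated best with their own number. Pairing by number was thus not shown, and a shared batch was not tested.

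Between treated genotypes, the 3 called members became 6 with the other size factors (1520 of 24623 genes called). DESeq2 gave 9 (3197 of 24623), a stricter filter 5 (1589 of 15974) and title set as an added term 6 (1627 of 24623). Only the libraries compared gave 0 (0 of 22422), and totals without mitochondrial and ribosomal protein genes 5 (1424 of 24414). Alternatives added after seeing the data gave 1 without the 5 libraries of the high Rn7sk class (828 of 26381). A term for the class gave 8 (2175 of 24623), and the brown adipocyte covariate 8 (1800 of 24623). The count was 0 without the 4 libraries with intestinal transcripts (8 of 25338) and 0 with organ covariates (2 of 24623).

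For treatment, the lower members in wild type were 34 without the 5 libraries, 1 without the 4 libraries, 1 with organ covariates (1 higher) and 0 with the brown adipocyte covariate. With organ covariates, 1255 of 24623 genes were lower in wild type. In knockout the lower members were 62 with the class as a term (1 higher), where 1385 of 24623 genes were lower. The count there was 0 with organ covariates (2 of 24623 genes), 7 with the brown adipocyte covariate (809) and 1 with the kidney tubule covariate (238). Without the 5 libraries 1 member, Ndufa4l2, was higher in the knockout treatment response. The median log2 fold changes were -0.14 (wild type) and -0.15 (knockout) with organ covariates, and -0.20 and -0.35 with the brown adipocyte covariate. Of the called members, 18 in wild type and 1 in knockout had log2 fold changes of the other sign with organ covariates, and 7 in wild type with the brown adipocyte covariate. Of the members named by rule, these were with organ covariates in wild type Sdhd (0.1346), Sdhb (0.08538), Uqcrc1 (0.1825), Cox7b (0.1544), Cox7a2 (0.01177), Cox6b1 (0.02973), Sdhc (0.01319) and Atp5g2 (0.1662), and in knockout Atp5b (0.04416). With the brown adipocyte covariate they were in wild type Sdhd (0.03989), Sdhb (0.03003), Uqcrc1 (0.1104), Cox7b (0.0235), Cox8a (0.01079) and Atp5g2 (0.0437). The cause of these changes was not tested.

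Leaving out 1 library at a time gave 47 to 67 lower members in wild type. The lowest was without library 3 of wild type PBS in the F set (2385 of 25723 genes lower). The highest was without library 1 of that group (2757 of 25749). In knockout the range was 13 to 72 (431 of 25837 and 1493 of 25642 genes lower). Leaving out libraries 2 and 3 of the treated F set gave 17 and 15 (593 of 25773 and 619 of 25762). Without library 2 of the PBS plain set 18 were lower (707 of 25812), and without library 3 of the treated plain set 17 (560 of 25857). Leaving out 1 library gave 0 to 8 called members between treated genotypes and 0 to 0 in the other comparisons. Without library 2 of treated wild type in the F set, which gave 8, 1624 of 25815 genes were called. The members' median ranged from -1.11 to -0.86 in wild type, -1.05 to -0.62 in knockout, -0.25 to 0.03 between genotypes under PBS, -0.16 to 0.25 between treated genotypes and -0.07 to 0.33 for the interaction.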
